A study of Mus musculus with 5 samples.

Results

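Klf2 and 6 further genes of lymph node homing and egress were followed through CD8+ T cell activation: the transcription factors Klf2 and Klf3, the egress receptor S1pr1, the chemokine receptors Ccr7, Cxcr3 and Cxcr4, and the surface lectin Cd69. The set was chosen by gene name, and all 7 genes were found among the 13911 genes of the table covering every time point. The cells were OT-I CD8+ T cells of the mouse strain C57BL/6-Tg(TcraTcrb)1100Mjb/J, which carries a transgenic receptor that recognises SIINFEKL, a peptide of ovalbumin. The cells were taken from spleen and lymph nodes. Purified by flow sorting and profiled on the 10x droplet platform, they made 5 libraries. A library at 0 h came before co-culture; 24 h and 72 h libraries came from co-culture with SIINFEKL-pulsed dendritic cells (DCs) together with myeloid-derived suppressor cells (MDSCs), or with the pulsed DCs alone. MDSCs are immature myeloid cells known for restraining T cell responses. Each group was 1 library, so there is no replicate error and sizes are described without any test. No group was cultured without pulsed DCs, so stimulation and time in culture cannot be told apart, and the labels used here do not give how many mice were pooled or where the DCs and MDSCs came from.

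Naive T cells circulate by entering lymph nodes and leaving them again. Klf2, a zinc-finger factor of quiescent T cells, switches on S1pr1, the receptor for sphingosine-1-phosphate that guides cells out of the node. CCR7 steers cells into and within the node along its ligands CCL19 and CCL21, CXCR3 steers activated cells to interferon-induced chemokines in inflamed tissue, and CXCR4 responds to CXCL12. CD69 appears early after activation and binds S1PR1 on the same cell, taking it off the surface. Klf3 is a related zinc-finger factor, mostly a repressor, that binds the same CACCC-type elements as Klf2.

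The genes lie on 7 chromosomes (GENCODE M21, build GRCm38, the assembly of mm10), and all are protein coding. Klf2 spans chr8:72319033-72321656 on the plus strand and Klf3 chr5:64803388-64832901 on the plus strand. S1pr1 (chr3:115710433-115715072), Ccr7 (chr11:99144196-99155077), Cxcr3 (chrX:101731535-101734269), Cxcr4 (chr1:128588199-128592293) and Cd69 (chr6:129267325-129275436) lie on the minus strand. RefSeq promoter windows (build GRCm38.p6, 250 bases before to 50 after the start) were matched for 4 of the 7, namely Klf2, Klf3, Cxcr3 and Cxcr4. Those of Klf2, Klf3 and Cxcr4 are shown, as the results turn on Klf2, on the factor that went with it at 0 h, and on the receptor whose ratio with MDSCs at 72 h was closest to its own. Capitals mark CACCC, the core of KLF-type elements, or its reverse complement GGGTG. The windows are chr8:72318812-72319111 (plus strand) for Klf2, chr5:64803271-64803570 (plus strand) for Klf3 and chr1:128592250-128592549 (minus strand) for Cxcr4, each written along its gene's strand.
Klf2: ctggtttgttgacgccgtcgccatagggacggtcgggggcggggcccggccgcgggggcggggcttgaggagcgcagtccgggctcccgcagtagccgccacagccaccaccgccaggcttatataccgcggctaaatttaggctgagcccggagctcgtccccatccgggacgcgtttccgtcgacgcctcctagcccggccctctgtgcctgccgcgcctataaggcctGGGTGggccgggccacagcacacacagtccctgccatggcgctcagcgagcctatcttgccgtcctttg
Klf3: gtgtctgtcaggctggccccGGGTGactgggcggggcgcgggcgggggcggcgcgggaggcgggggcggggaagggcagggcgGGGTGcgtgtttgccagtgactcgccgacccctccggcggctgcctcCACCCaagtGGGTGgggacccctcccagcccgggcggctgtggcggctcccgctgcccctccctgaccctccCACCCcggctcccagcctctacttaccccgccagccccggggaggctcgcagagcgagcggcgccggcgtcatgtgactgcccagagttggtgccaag
Cxcr4: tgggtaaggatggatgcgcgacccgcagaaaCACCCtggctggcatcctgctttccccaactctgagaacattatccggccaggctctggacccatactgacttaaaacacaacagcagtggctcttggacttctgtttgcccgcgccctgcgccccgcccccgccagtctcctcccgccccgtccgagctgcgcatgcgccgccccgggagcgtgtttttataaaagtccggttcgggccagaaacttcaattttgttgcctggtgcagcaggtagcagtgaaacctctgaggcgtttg
Both strands were searched for 4 motifs, and matches of CACCC and GGGCGG can overlap at their ends. CACCC occurred 5 times in the Klf3 window, 1 time each in those of Klf2 and Cxcr4, and 0 times in that of Cxcr3. Of 32851 promoter windows, 57.5% held CACCC and 3.10% held it 4 or more times. GGGCGG, the GC box, occurred 2 times in Klf2, 6 in Klf3, 3 in Cxcr4 and 0 in Cxcr3, and 35.7% of all windows held it. The forkhead motif GTAAACA (3.65% of windows) and the AP-1 motif TGANTCA (7.81%) occurred 0 times in all 4. These are letter matches in these windows and say nothing of whether a factor binds there.

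The libraries held 2952 cells at 0 h, 2247 with MDSCs and 1562 without at 24 h, and 4942 with MDSCs and 1926 without at 72 h. The deposited values are natural logs of 1 plus whole numbers whose total per cell was nearly fixed (13061 to 15988), so the molecules behind a value are unknown. Levels are given as adjusted counts per 1000000 of the library (CPM), and shares of cells carry exact (Clopper-Pearson) 95% intervals that cover counting error only. The 0 h library stood apart: among genes found in under 2% of cells, 26.3% of its values above 0 equalled 1, against 95.2 to 96.8% in the others, and its median of genes per cell was 2210 against 3111 to 3621. Values set against 0 h carry an unknown bias from this. Between 30 and 61 cells per library (1.23 to 2.28%) had a barcode sequence also found in another library. All 8 measured CD8 T cell markers were present in every library (summed level 2312 to 7358 CPM). Markers of other types were counted per cell. The share of cells holding at least 2 from a single list was 0.373% at 0 h, 25.9% with MDSCs and 13.3% without at 24 h, and 48.3% with MDSCs and 31.4% without at 72 h. In the cultured libraries nearly all came from the dendritic list, through Cst3 and Batf3. At 0 h, 5 of the 11 such cells came from it, 4 from the myeloid and 2 from the erythroid list. Of the dendritic list 7 of 12 were measured. Their summed level was 126.8 CPM at 0 h, 154 CPM with MDSCs and 112 CPM without at 24 h, and 238 CPM with MDSCs and 196 CPM without at 72 h. Cst3 was above 0 in 64.7 to 98.1% of cells of every library, and Batf3 in 0 to 52.7%. The more specific Itgax, Zbtb46, Ccl22 and Ccl17 were each above 0 in at most 2.00% of cells of any library, Fscn1 in 8.88% at 72 h without MDSCs. Markers of myeloid cells (8 of 16 measured, summed level 21.6 to 111 CPM) gave 2 or more in at most 2.43% of cells. Those of B (2 of 7 measured), CD4 T (2 of 3) and erythroid cells (3 of 3) did so in at most 0.0678%. Only 1 of 4 NK cell markers was measured, so no cell could hold 2. Of the B cell markers, Cd79b was above 0 in 6.19 to 31.1% of cells and Cd79a in at most 0.260%. The highest myeloid sum, 111 CPM at 0 h, was nearly all Ly6c2 (109.8 CPM, above 0 in 19.1% of cells). Ratios, shares and Klf2 splits were also computed without cells holding 2 or more markers of another type, and changed calls are named. In the cultured libraries these marker cells were nearly all picked through Cst3 and Batf3, while 100% of cells in every library held 2 or more CD8 T cell markers. Leaving out the marker cells therefore cannot measure the part of other cell types in a result.

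Klf2 was far lower in every cultured library than before stimulation. It stood at 947 CPM at 0 h, at 10.96 CPM with MDSCs and 20.5 CPM with DCs alone at 24 h, and at 22.7 CPM with MDSCs and 139.7 CPM with DCs alone at 72 h. The order of libraries was therefore 0 h, 72 h with DCs, 72 h with MDSCs, 24 h with DCs, 24 h with MDSCs; at 24 h with DCs and 72 h with MDSCs the levels were close. Klf2 was above 0 in 99.3% of cells at 0 h (98.9 to 99.5%), in 10.5% with MDSCs (9.27 to 11.8%) and 11.1% with DCs alone (9.56 to 12.7%) at 24 h, and in 18.4% with MDSCs (17.4 to 19.5%) and 60.6% with DCs alone (58.4 to 62.8%) at 72 h. The shares at 24 h have overlapping intervals; those at 72 h lie far apart.

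**Figure D1:**
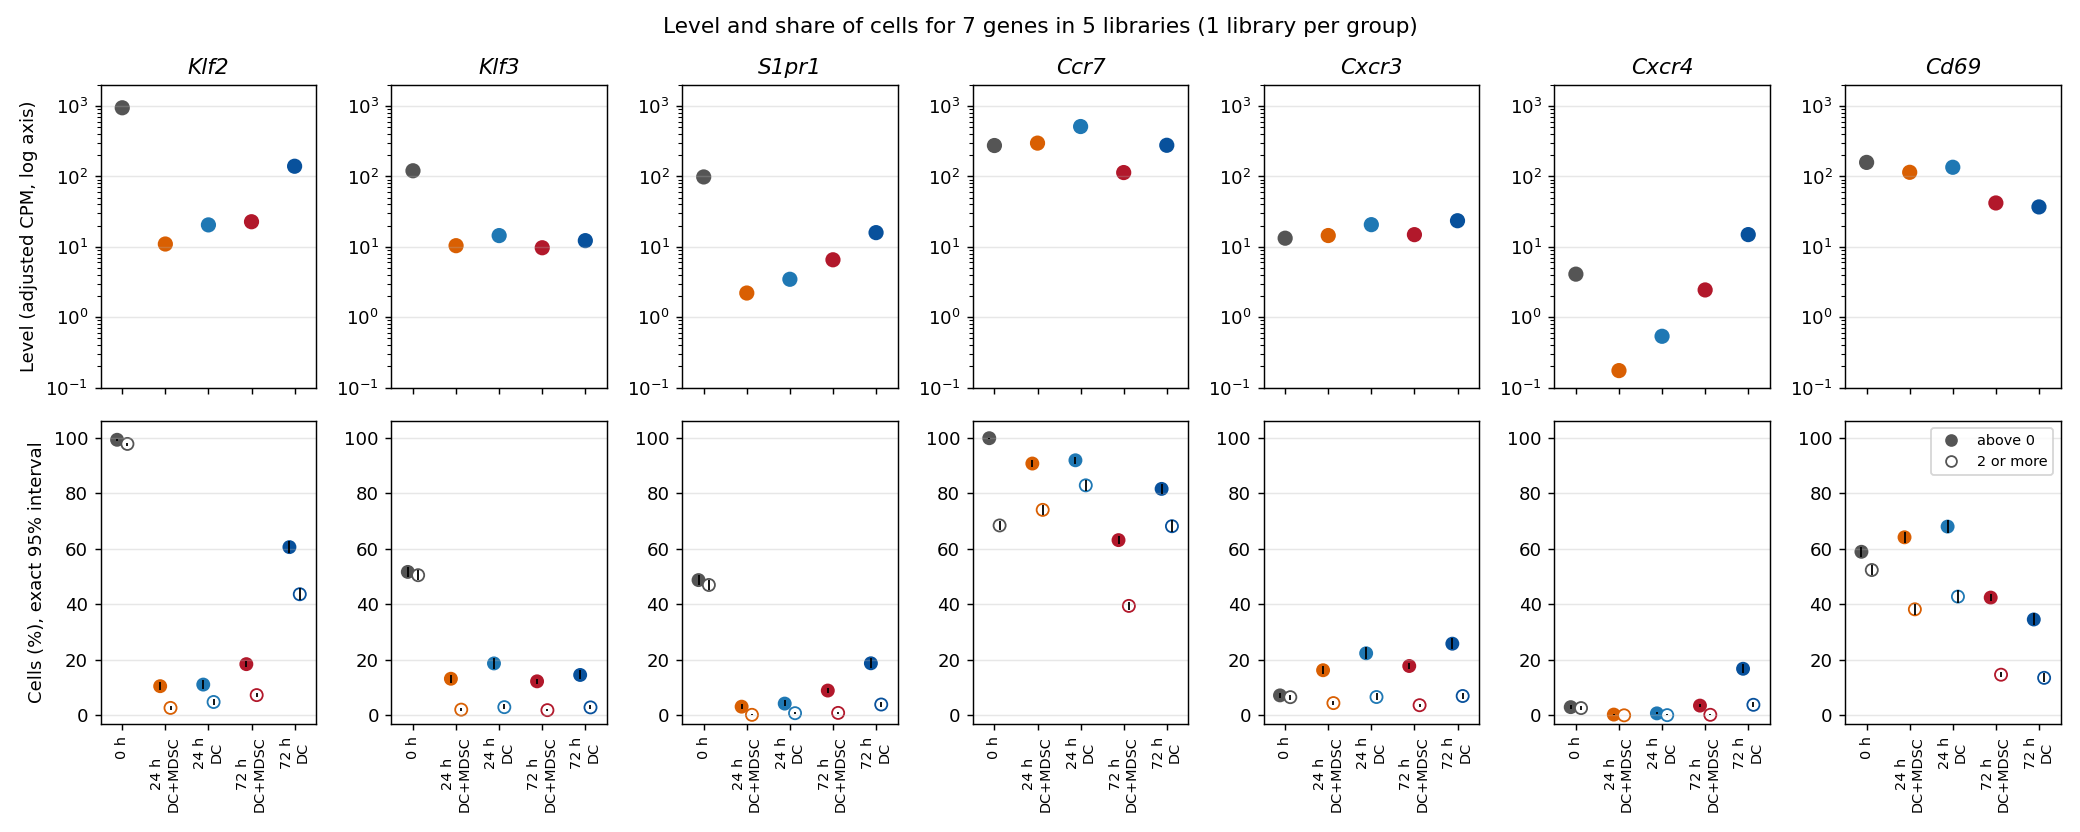
Level in adjusted CPM (upper row, log axis) and share of cells (lower row, percent; filled, above 0; open, at 2 or more adjusted counts; bars, exact 95% intervals) of the 7 genes in the 5 libraries. Klf2, Klf3 and S1pr1 were highest at 0 h, Ccr7 was highest at 24 h with DCs alone (513 CPM), and Cxcr4 at 72 h with DCs alone (14.9 CPM).

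The level per cell showed where the Klf2 transcripts sat. At 0 h the median cell held 12 adjusted counts, and 32.7% of cells held 16 or more. At 24 h, 89.5% of cells with MDSCs and 88.9% with DCs alone held 0, and the cells at 4 or more were 9 and 38 in number. The 9 cells, 0.401% of the library with MDSCs, held 23.0% of its Klf2, and the 38 cells, 2.43% of the library with DCs alone, held 63.3%. At 72 h, 2.12% of cells with MDSCs and 22.9% with DCs alone held 4 or more. The 38 cells had a median of 2348 genes above 0, against 3600 for cells of that library with Klf2 at 0. S1pr1 was above 0 in 28.9% of them (15.4 to 45.9%) against 3.67% (2.75 to 4.80%) at Klf2 of 0. Irf4, a transcription factor of T cell activation, was above 0 in 13.2% of them (4.41 to 28.1%) against 71.6% (69.2 to 74.0%). Klf3 was above 0 in 31.6% of them (17.5 to 48.7%) against 18.4%. Il7r, the IL-7 receptor carried by naive and memory cells, was above 0 in 5.26% (0.644 to 17.7%) against 11.3%. That share rests on 2 of the 38 cells, and by level Il7r was higher in the 38, at 14.7 against 8.68 CPM. At a Klf2 of 2 to 3 in that library, Il7r was above 0 in 29.7% of 37 cells (15.9 to 47.0%).

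**Figure D2:**
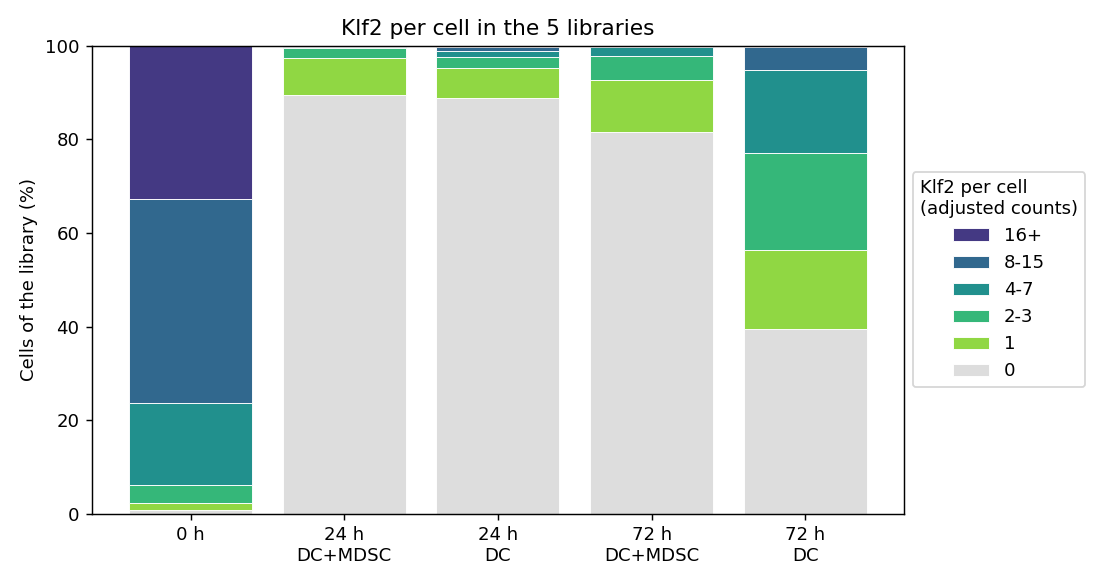
Share of the cells of each library (percent, stacked to 100) by Klf2 per cell in adjusted counts. Cells at 0 made up 0.745% at 0 h, 89.5% with MDSCs and 88.9% without at 24 h, and 81.6% with MDSCs and 39.4% without at 72 h.

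S1pr1, the egress receptor, gave the same order of libraries as Klf2. Its level was 98.5 CPM at 0 h, 2.20 CPM with MDSCs and 3.46 CPM with DCs alone at 24 h, and 6.54 CPM with MDSCs and 15.9 CPM with DCs alone at 72 h. Its share of cells was 48.7% at 0 h (46.9 to 50.5%), 3.12% with MDSCs (2.44 to 3.92%) and 4.23% with DCs alone (3.28 to 5.34%) at 24 h, and 8.92% with MDSCs (8.14 to 9.75%) and 18.7% with DCs alone (17.0 to 20.6%) at 72 h. The 24 h intervals overlap and the 72 h intervals do not. At 72 h with DCs alone S1pr1 was still 6.19-fold lower than at 0 h (log2 ratio -2.63), and Klf2 was 6.78-fold lower (-2.76).

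Klf3 did not return with Klf2. Its level was 120.5 CPM at 0 h, 10.4 CPM with MDSCs and 14.4 CPM with DCs alone at 24 h, and 9.70 CPM with MDSCs and 12.2 CPM with DCs alone at 72 h. All 4 cultured libraries lay within 1.5-fold of each other, and their shares of cells were 12.2 to 18.7%, against 51.7% at 0 h. The log2 ratio at 72 h with DCs alone against 0 h was -3.30 (9.84-fold lower), and against 24 h with DCs alone it was -0.24.

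The chemokine receptors each took a different course. Ccr7, the receptor of lymph node entry, stood at 275 CPM at 0 h, 298 CPM with MDSCs and 513 CPM with DCs alone at 24 h, and 114 CPM with MDSCs and 277 CPM with DCs alone at 72 h. It was the member that changed least between 72 h with DCs alone and 0 h, with a log2 ratio of 0.01. The sign of that ratio turned when computed from mean natural logs (-0.25), with a total without ribosomal protein and mitochondrial genes (-0.20) and with centring on the median gene (-0.18). Cells at 2 or more adjusted counts of Ccr7 made up 68.4% at 0 h, 74.0% with MDSCs and 82.8% with DCs alone at 24 h, and 39.4% with MDSCs and 68.1% with DCs alone at 72 h. At 0 h 928 cells held exactly 1 and 5 cells held 0, so its share above 0 there (99.8%) is not set against the others.

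Cxcr3, the receptor of activated T cells, varied least in level over the 5 libraries. It stood at 13.3 CPM at 0 h, 14.5 CPM with MDSCs and 20.7 CPM with DCs alone at 24 h, and 14.9 CPM with MDSCs and 23.5 CPM with DCs alone at 72 h. Its share of cells was 16.2% with MDSCs (14.7 to 17.8%) and 22.3% with DCs alone (20.3 to 24.5%) at 24 h, and 17.8% with MDSCs (16.7 to 18.9%) and 25.8% with DCs alone (23.9 to 27.8%) at 72 h. At both times the intervals with and without MDSCs do not overlap. The 212 cells with Cxcr3 at 0 h (7.18%) held a mean of 2.58 adjusted counts, against 1.27 to 1.44 in the cells with Cxcr3 of the cultured libraries. Of Cxcr3 values above 0, 8.96% equalled 1 at 0 h, against 70.5 to 79.5% in the cultured libraries. The difference in means thus cannot be told apart from the adjustment of the 0 h library.

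Cxcr4, the CXCL12 receptor, was found in few cells at 24 h and was highest at 72 h with DCs alone. Its level was 4.09 CPM at 0 h, 0.174 CPM with MDSCs and 0.535 CPM with DCs alone at 24 h, and 2.44 CPM with MDSCs and 14.9 CPM with DCs alone at 72 h. The counts of cells behind these levels were 87 of 2952 at 0 h, 6 of 2247 with MDSCs and 11 of 1562 with DCs alone at 24 h, and 173 of 4942 with MDSCs and 323 of 1926 with DCs alone at 72 h. It was the only member with a higher level at 72 h with DCs alone than at 0 h by over 2-fold (3.65-fold, log2 ratio 1.87).

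Cd69, the early activation lectin, was already present at 0 h. Its level was 158 CPM at 0 h, 115 CPM with MDSCs and 135 CPM with DCs alone at 24 h, and 42.0 CPM with MDSCs and 36.9 CPM with DCs alone at 72 h. Its share of cells was 58.9% at 0 h (57.1 to 60.7%), 64.1% with MDSCs (62.1 to 66.1%) and 68.0% with DCs alone (65.6 to 70.3%) at 24 h, and 42.4% with MDSCs (41.0 to 43.8%) and 34.5% with DCs alone (32.4 to 36.7%) at 72 h. The order of 0 h and 24 h turned at 2 or more adjusted counts, with 52.3% at 0 h, and 38.2% with MDSCs and 42.8% with DCs alone at 24 h. Of Cd69 values above 0, 11.2% equalled 1 at 0 h, against 40.5% with MDSCs and 37.1% with DCs alone at 24 h. The share above 0 at 0 h is therefore not comparable. At 72 h Cd69 was the one member whose level was higher with MDSCs than without.

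Comparisons between libraries used 1 size rule: at least 10 CPM in either library and a ratio of 2 or more. Against 0 h, 24 h with DCs alone had 0 of 6 members higher and 3 lower, Klf2 (46.2-fold), S1pr1 (28.5-fold) and Klf3 (8.34-fold); of all 7006 genes at that level, 40.9% were higher and 10.6% lower. Klf2 ranked 9 and S1pr1 18 from the lowest ratio. The Klf2 log2 ratio of -5.53 was -6.54 from the mean natural log value and -6.21 without the 1% of cells highest in it, and that of S1pr1 (-4.83) was -5.49 without the 1% of cells highest in it. S1pr1 reached 10 CPM only through the 0 h library, and Cxcr4 was under 10 CPM in both. The log2 ratios of Ccr7 (0.90) and Cxcr3 (0.64) were under 2-fold. Ccr7 passed it at 1.02 with 0 h values of 1 set to 0, and Cxcr3 at 1.05 from the mean natural log value.

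At 72 h against 24 h with DCs alone, 3 of 7 members were higher, where 15.5% of 7336 genes were higher, and 1 was lower, where 20.8% were lower. The higher members were Cxcr4 (27.9-fold, rank 55 from the highest ratio), Klf2 (6.82-fold) and S1pr1 (4.60-fold), and the lower member was Cd69 (3.66-fold). Cxcr4 and S1pr1 reached 10 CPM only through the 72 h library. At 72 h with DCs alone against 0 h, 1 of 7 members was higher (Cxcr4) and 4 were lower (Klf3, Klf2, S1pr1 and Cd69); over 6684 genes 26.6% were higher and 5.12% lower. Cxcr4 reached 10 CPM only through the 72 h library. Cxcr3 passed 2-fold there from the mean natural log value (1.29) and without the 1% of cells highest in it (1.16), against 0.83 with all cells.

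With MDSCs present, 1 of 5 members was higher at 72 h than at 24 h, Klf2 (2.07-fold, log2 ratio 1.05), and 2 were lower, Cd69 (2.73-fold) and Ccr7 (2.62-fold). The shares of all 7125 genes were 10.7% higher and 24.7% lower. S1pr1 was at 6.54 against 2.20 CPM and Cxcr4 at 2.44 against 0.174 CPM, both under the level rule. The Klf3 log2 ratio of -0.10 turned sign with a total without ribosomal protein and mitochondrial genes (0.05), with centring (0.26) and without cells holding markers of other types (0.11). These comparisons share libraries with those above, so their values are given side by side and not correlated.

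The treatment named in the labels is the presence of MDSCs. Pulsed DCs with MDSCs against pulsed DCs alone differed between times in how many members passed the rule. At 24 h 0 of 5 members passed 2-fold in either direction, as did few genes (0.535% of 6726 higher, 0.297% lower). All 7 members were lower with MDSCs at 24 h, with log2 ratios from -0.24 for Cd69 to -1.62 for Cxcr4, which was found in 6 and 11 cells. Over all genes tested the 25th percentile was -0.04 and the median 0.09. The log2 ratios of Klf2 (-0.90), Ccr7 (-0.78), S1pr1 (-0.65), Cxcr3 (-0.51) and Klf3 (-0.48) lay below the 5th percentile of all genes, -0.30. S1pr1 and Cxcr4 were under the level rule. The Klf2 ratio rested on the few high cells. Without cells at 4 or more adjusted counts, the log2 ratio was 0.14 (8.47 CPM with MDSCs, 7.70 CPM with DCs alone). It passed 2-fold with a total without ribosomal protein and mitochondrial genes (-1.02) and in the separately adjusted 24 h table (-1.19).

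At 72 h 0 of 7 members were higher and 4 were lower with MDSCs, where 2.08% of 6697 genes were higher and 5.52% lower. Klf2 was 6.15-fold lower (log2 ratio -2.62, rank 40 from the lowest), Cxcr4 6.12-fold (-2.61, rank 41), Ccr7 2.44-fold (-1.29) and S1pr1 2.43-fold (-1.28). Cxcr4, S1pr1 and Klf3 reached 10 CPM only through the library with DCs alone, so they could pass mainly in that direction. Cxcr3 (-0.66), Klf3 (-0.34) and Cd69 (0.19) were within 2-fold. The median log2 ratio over the 7 members was -1.28, the ratio of S1pr1 itself, and over all genes tested -0.07. The members' median includes those at 10 CPM only in the library with DCs alone, so it leans towards lower values. Without cells at 4 or more of Klf2, its log2 ratio was -1.91 (15.3 CPM with MDSCs, 57.6 CPM with DCs alone). The dendritic markers did not move together at 72 h. Shares with and without MDSCs were 0.830% and 8.88% for Fscn1, and 0.0202% and 0.0519% for Ccl22. Batf3 (52.7% against 28.6%) and Cst3 (87.9% against 85.2%) had larger shares with MDSCs. So did Zbtb46 (0.587% against 0.156%), Ccl17 (0.162% against 0.156%) and Itgax (0.0809% against 0.0519%). For the granulocyte transcript S100a8 the shares were 0.688% and 0%. Leaving out cells with markers of other types, nearly all picked through Cst3 and Batf3, changed no call of this comparison. It cannot show the part of other cell types in these ratios.

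**Figure D3:**
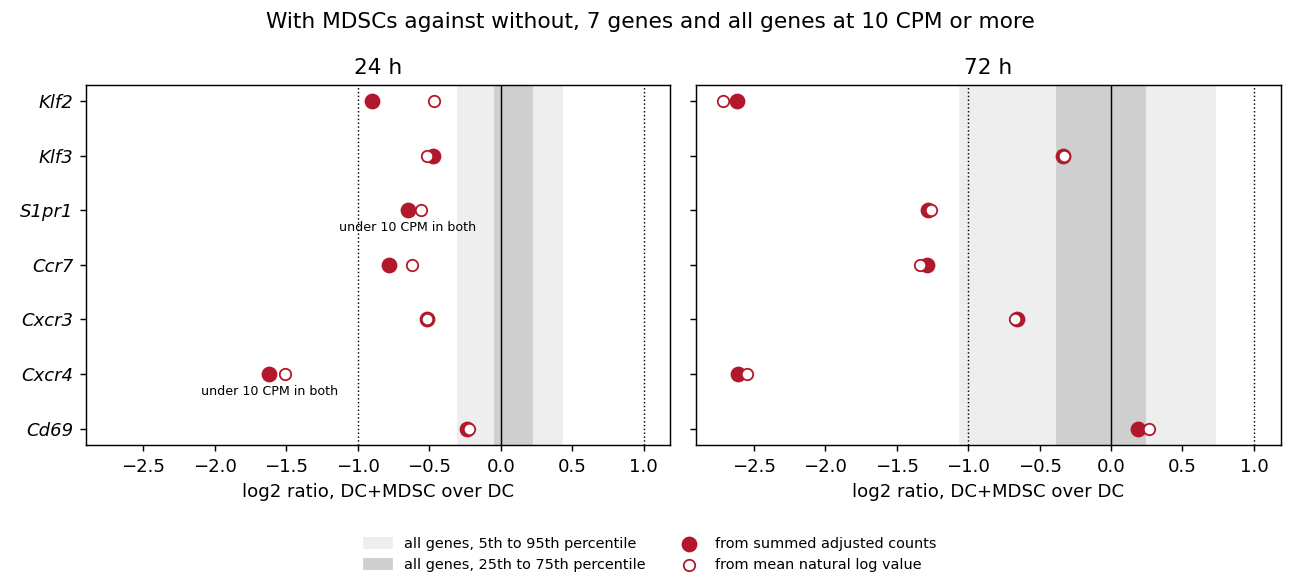
Log2 ratios, DCs with MDSCs over DCs alone, at 24 h (left) and 72 h (right), for the 7 genes from summed adjusted counts (filled) and from the mean natural log value (open), over the 5th to 95th and 25th to 75th percentiles of all genes at 10 CPM or more (grey). At 72 h Klf2 and Cxcr4 lie at -2.62 and -2.61, outside the grey range, and Cd69 at 0.19 within it; dotted lines mark 2-fold.

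Since fewer cells held Klf2 at 72 h with MDSCs, the other members were compared within cells split by its presence. Among cells with Klf2 at 0 (4031 with MDSCs, 759 with DCs alone), Cxcr4 stood at 2.23 against 11.9 CPM (log2 ratio -2.42), Ccr7 at 103.8 against 226 CPM (-1.13) and S1pr1 at 5.72 against 8.03 CPM (-0.49). Among cells with Klf2 above 0 (911 and 1167), Cxcr4 stood at 3.36 against 16.9 CPM (-2.33), Ccr7 at 158 against 311 CPM (-0.98) and S1pr1 at 10.2 against 21.1 CPM (-1.05). Cxcr3 had log2 ratios of -0.77 at a Klf2 of 0 and -0.31 above 0. Cxcr4, Ccr7, S1pr1 and Cxcr3 were thus lower with MDSCs in both sets of cells. Over the same sets the log2 ratios were -0.09 and 0.06 for Klf3, and 0.33 and 0.08 for Cd69. The cells above 0 were not alike in Klf2, with a mean of 1.87 adjusted counts with MDSCs against 3.49 with DCs alone. At a Klf2 of 4 or more S1pr1 stood at 25.4 against 29.0 CPM and Ccr7 at 262 against 324 CPM. Cxcr4 stood there at 3.25 against 18.6 CPM, and Cxcr3 was higher with MDSCs, at 26.7 against 24.4 CPM. The Ccr7 share there was 92.4% against 88.2%. S1pr1 shares were 9.80% against 15.3% at a Klf2 of 1, 14.9% against 21.9% at 2 to 3, and 25.7% against 31.4% at 4 or more. The intervals of each of these pairs of shares overlap. Cells with Klf2 at 0 may still hold unsequenced Klf2 transcripts.

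Joint presence was read in the cultured libraries alone, as the Ccr7 share above 0 at 0 h is not comparable. Klf2, S1pr1 and Ccr7 were all above 0 in 0.712% with MDSCs (0.408 to 1.15%) and 0.960% with DCs alone (0.538 to 1.58%) at 24 h, and 1.96% with MDSCs (1.59 to 2.39%) and 12.7% with DCs alone (11.3 to 14.3%) at 72 h. All were at 0 in 29.8% of cells with MDSCs (28.5 to 31.1%) and 8.52% with DCs alone (7.31 to 9.85%) at 72 h. At 24 h those shares were 8.81% with MDSCs and 7.30% with DCs alone, with overlapping intervals.

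Co-expression with Klf2 was read within each library, from the share of cells with a gene among cells with Klf2 above 0 minus that among cells with Klf2 at 0. At 0 h, where nearly every cell held Klf2, cells above the median of 12 were set against the rest. A difference of 10 percentage points was the size rule, for genes at 10 CPM or more in the library. It left out Cxcr4 at 0 h, S1pr1 and Cxcr4 in both 24 h libraries, and Klf3, S1pr1 and Cxcr4 at 72 h with MDSCs. In the cultured libraries, cells with Klf2 had fewer genes above 0 (medians of 3452 against 3633 with MDSCs and 3298 against 3600 with DCs alone at 24 h, and 2986 against 3131 with MDSCs and 3078 against 3407 with DCs alone at 72 h).

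At 0 h Klf3 was the 1 member tested that passed, in 59.3% of cells with Klf2 above the median (56.7 to 61.9%) and 44.5% of the rest (42.0 to 47.0%). Its difference of 14.8 points was the largest of all 5080 genes tested, of which 0.0787% were higher and 0% lower by 10 points. At 24 h 0 of the members tested passed with MDSCs, against 1.85% of 6550 genes higher and 6.73% lower, and 0 with DCs alone, against 3.16% of 6588 higher and 20.2% lower. With Klf2 at 2 or more as the split, of the members tested, Klf3 passed at 24 h with MDSCs (15.6 points) and Cd69 at 24 h with DCs alone (-15.4 points). At 72 h with MDSCs Ccr7 passed, in 74.2% of cells with Klf2 (71.2 to 77.0%) and 60.6% of those without (59.1 to 62.1%); 0.212% of 6142 genes were higher and 0.684% lower. At 72 h with DCs alone S1pr1 passed, in 23.7% of cells with Klf2 (21.2 to 26.2%) and 11.2% of those without (9.04 to 13.7%), and Ccr7, in 85.8% (83.6 to 87.7%) and 75.1% (71.9 to 78.1%); 0.73% of 6440 genes were higher and 1.6% lower. The Ccr7 differences went under 10 points within 3 equal sets of cells by genes detected, averaged (9.56 with MDSCs, 4.77 with DCs alone), and with DCs alone also without cells holding markers of other types (7.33) and in the 72 h table (5.74). That of S1pr1 at 72 h with DCs alone was 12.1 to 14.8 points over its alternatives.

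**Figure D4:**
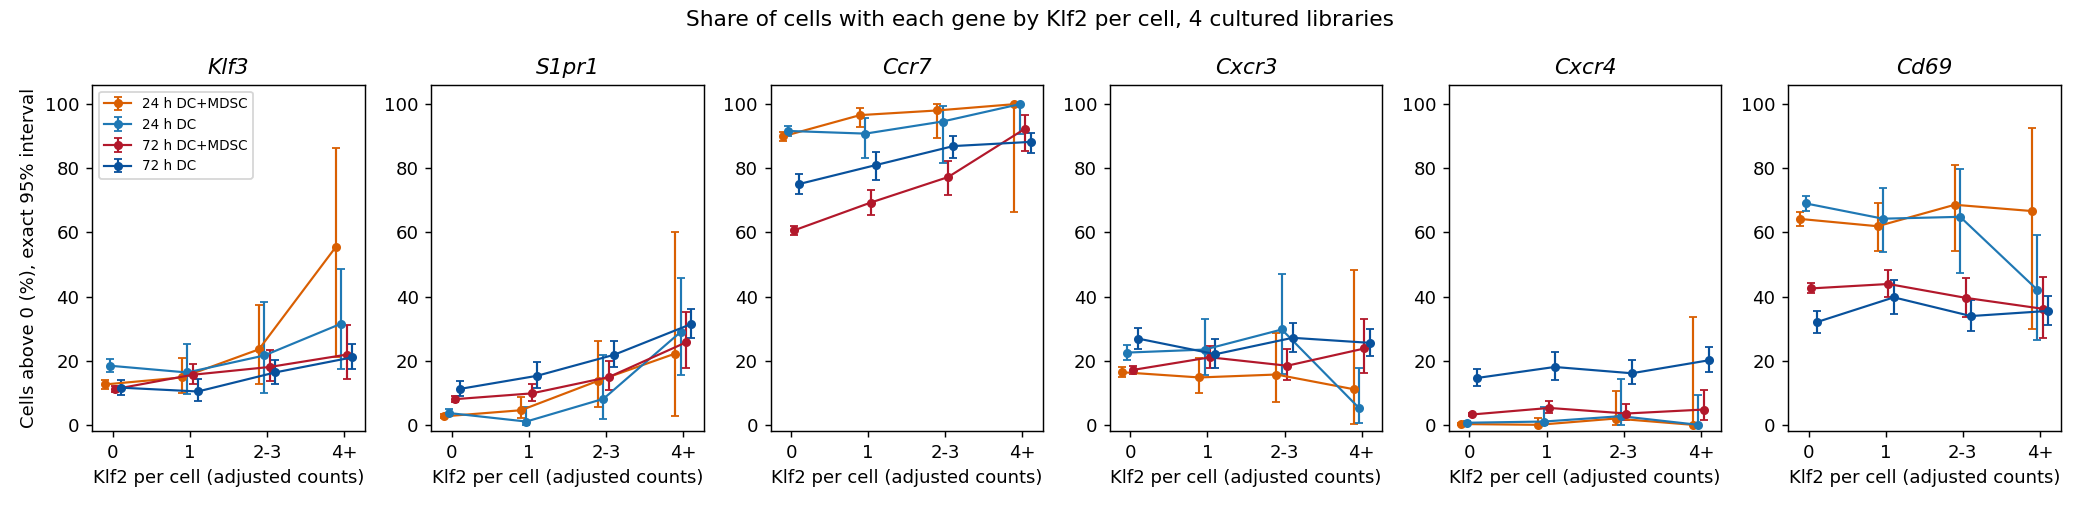
Share of cells with each of the other 6 genes above 0 (percent, exact 95% intervals) against Klf2 per cell, in the 4 cultured libraries. At 72 h S1pr1 was in 25.7% of the cells at a Klf2 of 4 or more and 7.99% of those at 0 with MDSCs, and in 31.4% and 11.2% with DCs alone.

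Graded by Klf2 per cell, S1pr1 and Ccr7 were the members whose shares increased at each class in both 72 h libraries. The median of genes above 0 fell over the same classes, from 3131 to 3106, 2815 and 2610 with MDSCs. With DCs alone it fell from 3407 to 3306, 3128 and 2929. The classes were not compared within sets of cells by genes detected, where the Ccr7 difference between the Klf2 sets went under 10 points. In the library with MDSCs, S1pr1 was found in 7.99% of cells at a Klf2 of 0, 9.80% at 1, 14.9% at 2 to 3 and 25.7% (17.7 to 35.2%) at 4 or more. With DCs alone the shares were 11.2%, 15.3%, 21.9% and 31.4% (27.1 to 36.0%) over the same classes. Ccr7 was above 0 in 60.6%, 69.3%, 77.3% and 92.4% (85.5 to 96.7%) with MDSCs, and in 75.1%, 81.0%, 86.9% and 88.2% (84.9 to 91.1%) with DCs alone. Cxcr4 at 72 h with DCs alone was above 0 in 14.6% of cells at a Klf2 of 0 (12.2 to 17.3%) and 20.1% at 4 or more (16.5 to 24.2%), with overlapping intervals. With DCs alone Cxcr3 ran from 22.0 to 27.1% and Cd69 from 32.0 to 39.8% over the 4 classes, in neither case in the order of Klf2. With MDSCs Cxcr3 was found in 17.1%, 21.1%, 18.4% and 23.8% of cells over the classes, at levels of 14.0, 17.1, 18.9 and 26.7 CPM, and Cd69 in 42.5%, 43.9%, 39.6% and 36.2%. Klf3 increased at each class with MDSCs (11.2%, 15.6%, 18.0% and 21.9%), but not with DCs alone (11.6%, 10.4%, 16.3% and 21.0%).

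Across cells, Spearman correlations between members were weak in every library, and they are given as descriptions, since cells of a library share its preparation and adjustment. The highest per library were 0.23 for Klf2 with Klf3 at 0 h (2952 cells), 0.11 for Klf2 with Ccr7 at 24 h with MDSCs (2247 cells), 0.09 for Klf2 with S1pr1 at 24 h with DCs alone (1562 cells), 0.16 for Klf2 with Ccr7 at 72 h with MDSCs (4942 cells) and 0.21 for Klf2 with S1pr1 at 72 h with DCs alone (1926 cells). Each of these pairs included Klf2. S1pr1 with Ccr7 stayed at 0.02 to 0.06 in all 5 libraries. Over all genes at 20 CPM or more, the 5th and 95th percentiles of the correlation with Klf2 were -0.04 and 0.04 at 0 h and -0.13 and 0.11 at 72 h with DCs alone.

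**Figure D5:**
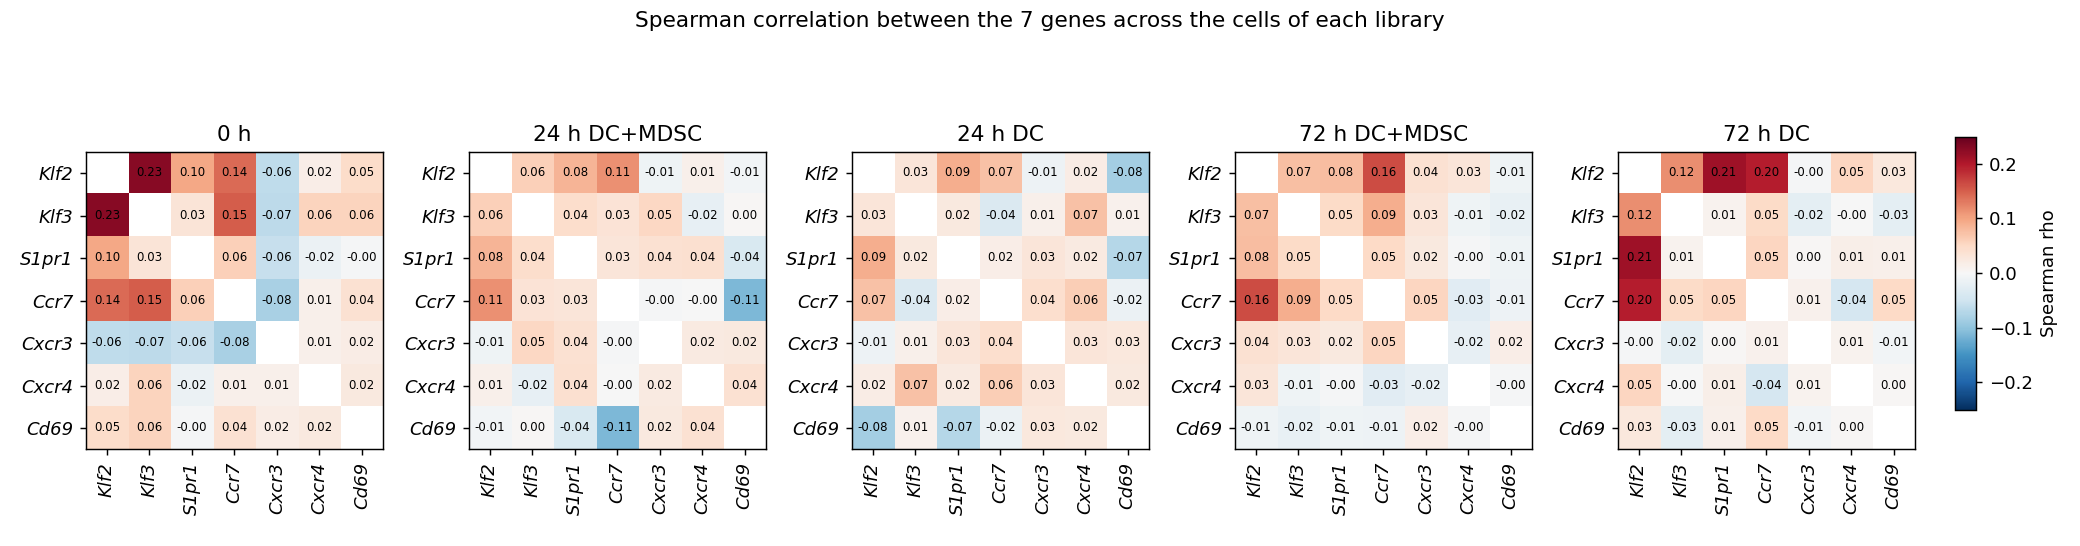
Spearman correlation between the 7 genes across the cells of each library (colour scale and printed values; the diagonal is blank). The highest values per library, 0.09 to 0.23, are in pairs with Klf2, and pairs with Cxcr4 lie between -0.04 and 0.07.

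CD69 removes S1PR1 protein from the surface, and at the transcript level the 2 genes were compared within libraries. At 24 h with DCs alone S1pr1 was above 0 in 3.11% of cells with Cd69 (2.15 to 4.34%) and 6.60% of cells without (4.59 to 9.14%), and the intervals do not overlap. With MDSCs at 24 h the shares were 2.91% and 3.47%, at 72 h 8.68% and 9.10% with MDSCs and 19.5% and 18.3% with DCs alone, and at 0 h 48.6% and 48.8%, all with overlapping intervals. The transcripts say nothing about the amount of either protein on the surface.

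By a rule on the shape of the profile (root mean square difference of centred log2(CPM + 1) over the 5 libraries, among 5747 genes at 20 CPM or more in any library), the 6 genes most like Klf2 were Cd7, Gm26740, S1pr1, Lcn4, Gm4955 and Tmem71. Cd7, a surface protein of T cells, was the nearest at 0.105, with 215 CPM at 0 h, 2.15 CPM with MDSCs and 3.95 CPM with DCs alone at 24 h, and 4.86 CPM with MDSCs and 37.6 CPM with DCs alone at 72 h. S1pr1 ranked 3 at 0.629. Over the 4 cultured libraries alone, the list was Cd7, Plod2, Fam26f, Lgals3, Ikzf2 and St6gal1, so 1 gene was in both. S1pr1, Lcn4 and Gm4955 were under 20 CPM in every cultured library and could not enter the second list. Without that minimum S1pr1 would still have stayed out, at 0.531 over the cultured libraries against 0.362 for St6gal1, which ranked 6. Within libraries, the 4 genes with the highest Spearman correlation with Klf2 across cells were Klf3, Tsc22d3 (a glucocorticoid-induced leucine zipper protein), Ubb and Klf6 at 0 h. They were Samhd1, Btg1, Rhoh and Fyb at 24 h with MDSCs, and Ms4a4b, Samhd1, Ifngr1 and Plac8 at 24 h with DCs alone. At 72 h they were Ms4a4b, Plac8, Slamf6 and Npc2 with MDSCs, and Crip1, Plac8, Ms4a4b and S1pr4 with DCs alone, where they had correlations of 0.31 to 0.35. S1pr4, another sphingosine-1-phosphate receptor, was above 0 in 75.4% of cells with Klf2 and 56.3% of cells without there.

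The wider homing and migration pathway was read from 7 lists (144 genes, of which 137 were in the table), which include the members. At 24 h with DCs alone against 0 h, 13 of 96 genes tested were higher and 37 lower, beside 40.9% and 10.6% of all genes tested. Of the 13 higher, 10 reached 10 CPM only through the 24 h library, and of the 37 lower, 8 only through the 0 h library. Such genes could pass mainly in that direction. The median log2 ratio of the 96 genes was -0.55, and that of all genes tested was 0.74. Of the regulators of G protein-coupled receptors, Rgs1, which dampens chemokine receptor signalling, stood at 61.8 against 6.82 CPM and Rgs10 at 32.9 against 316 CPM. Of the selectin list, Selplg, the P-selectin ligand, stood at 125 against 551 CPM. Of the integrin list, Cd44, the hyaluronan receptor, stood at 72.3 against 5.56 CPM and Itgb7, the integrin chain of gut homing, at 21.2 against 246 CPM. Of the cytoskeleton list 0 of 24 genes were higher and 9 lower, beside the same 40.9% and 10.6%, including Coro1a, an actin regulator needed for T cell egress, at 397 against 1586 CPM.

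At 72 h against 24 h with DCs alone, 31 of 102 pathway genes were higher and 16 lower, beside 15.5% and 20.8% of all genes tested (median 0.60, against -0.23). Of the 31 higher, 12 reached 10 CPM only through the 72 h library, and of the 16 lower, 5 only through the 24 h library. They could pass mainly in that direction. Itgb7 stood at 257 against 21.2 CPM, S1pr4 at 94.5 against 17.2 CPM, Arrb1, the arrestin of receptor uptake, at 41.6 against 1.56 CPM and Rgs1 at 13.5 against 61.8 CPM. At 72 h with DCs alone against 0 h, 10 of 99 pathway genes were higher and 16 lower, beside 26.6% and 5.12% of all genes tested (median -0.17, against 0.41). The same limit held for 9 of these 10, at 10 CPM only at 72 h, and 3 of these 16, at 10 CPM only at 0 h. With MDSCs, 13 of 90 pathway genes were higher and 19 lower at 72 h against 24 h, beside 10.7% and 24.7% (median 0.01, against -0.41). Of these 13, 2 reached 10 CPM only at 72 h, and of these 19, 8 only at 24 h.

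In the MDSC comparison 0 of 88 pathway genes passed 2-fold at 24 h, beside 0.535% of all genes higher and 0.297% lower. At 72 h 0 of 95 were higher and 15 lower with MDSCs, beside 2.08% and 5.52% of all genes tested (median -0.35, against -0.07). Of the 15, 9 reached 10 CPM only through the library with DCs alone and could pass mainly as lower: S1pr1, Ccr9, Cxcr4, Cxcr6, Lpar6, Arrb1, Itgb3, Icam2 and St3gal6. Of the 15, 5 were chemokine and related receptors (Ccr7, Ccr9, Cxcr4, Cxcr6 and Lpar6) of 9 tested, and 2 were the sphingosine-1-phosphate receptors S1pr1 and S1pr4 of 6 tested in their list. S1pr4 stood at 25.4 CPM with MDSCs against 94.5 CPM with DCs alone. Arrb1 stood at 5.30 against 41.6 CPM and Itgb7 at 109.6 against 257 CPM. The remaining genes were Klf2, Wipf1, Itgb3, Icam2, St3gal6 and B4galt1. Il7r went the other way without passing 2-fold, at 64.1 CPM with MDSCs against 41.4 CPM with DCs alone (log2 ratio 0.63).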

How the data were processed

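Flow-sorted OT-I CD8+ T cells were captured with 10x chemistry, per the labels' protocols; the submitters' processing notes list Cell Ranger 2.0.1, Seurat (no version) and mm10 without saying what each did. What the authors deposited are natural log values: each is ln(1 + a whole number), with 0 exceptions at a tolerance of 1e-06. The adjustment behind these whole numbers is not stated in the sources read, and molecule counts cannot be had from them. Separate tables for 24 h and 72 h were adjusted on their own and serve as alternatives; results use the table of all time points (13629 cells), and the deposited annotation gives each cell's library. Levels are summed exp(value) - 1 per 1000000 adjusted counts of the library. Sizes were described at 2-fold with 10 CPM or more in either library, and at 10 percentage points between sets of cells. Cells were neither thinned nor screened for doublets. No cell type that lacks these genes was present to give a background share. A gene of the lists is not reported here.

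The members, lists and rules were chosen with earlier results of these data known. Named genes are the 7 members, up to 2 per list, comparison and direction (past 2-fold, 20 CPM or more), and the 6 genes nearest Klf2 in profile and 4 in each library. Il7r, Irf4, marker genes and the full set of pathway genes lower at 72 h with MDSCs were named after their values were seen. Simulated data with known folds were used to test the code. Computation used Python 3.11.15, numpy 2.4.6, pandas 2.3.3, scipy 1.17.1 and matplotlib 3.10.9.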

Additional observations from a re-analysis of the deposited data

Results flagged for a closer look

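The MDSC ratio of Cd69 had opposite signs at the 2 times. Its log2 ratio of DCs with MDSCs over DCs alone was -0.24 at 24 h (115 against 135 CPM) and 0.19 at 72 h (42.0 against 36.9 CPM). Each group is 1 library, so the difference between the times was not tested, and both ratios are within 2-fold.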

How the results depend on the processing

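No paired analysis was possible because each group has 1 library. Of 278 alternative ratios of the 7 members, 7 had another sign and 6 lay on the other side of 2-fold, as named in the report; of 236 for the members other than Klf2, 235 were within 1.5-fold of the value reported, and the S1pr1 log2 ratio of 24 h with DCs over 0 h was -5.49 without the 1% of cells highest in it, against -4.83. Of 84 alternative shares of those 6 members, 41 moved: S1pr1 at 72 h with DCs was at 2 or more in 3.89% of cells and above 0 in 18.7%, and at 0 h in 47.0% and 48.7%. Of 83 alternative differences between cells split by Klf2, 2 newly passed 10 points and 4 no longer did. The Klf2 log2 ratio of 24 h with DCs over 0 h was -6.54 from the mean natural log value and -6.21 without the 1% of cells highest in Klf2, against -5.53. Without those cells that of 72 h over 24 h with DCs was 3.39, against 2.77. Without cells at 4 or more of Klf2 the MDSC ratio was 0.14 at 24 h and -1.91 at 72 h. The last 2 settings, and 0 h values of 1 set to 0, were chosen after seeing the data. Without the 1% of cells highest in it, Cxcr4 was at 0 in both 24 h libraries and gave no ratio there.

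With minimum levels of 50 and 200 CPM in place of 10, the genes past 2-fold were 1254 and 303 in place of 3609 for 24 h with DCs over 0 h, 1174 and 297 in place of 2665 for 72 h over 24 h with DCs, and 546 and 154 in place of 2118 for 72 h with DCs over 0 h. With MDSCs over without they were 18 and 5 in place of 56 at 24 h, and 188 and 49 in place of 509 at 72 h. For 72 h over 24 h with MDSCs they were 1090 and 267 in place of 2521. Fewer genes enter at a higher minimum.

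The share of cells with Klf2 at 2 or more was 97.8% at 0 h, 2.67% with MDSCs and 4.80% without at 24 h, and 7.28% with MDSCs and 43.6% without at 72 h. The share above 0 was 14.6% at 24 h with DCs in the 24 h table, and 23.2% with and 65.3% without MDSCs at 72 h once cells with markers of other types were left out. Of members at 10 CPM or more, those past 10 points were 1 in place of 0 in both 24 h libraries with Klf2 at 2 or more. They were 0 in place of 1 at 72 h with MDSCs within 3 sets of cells by genes detected. They were 1 in place of 2 at 72 h with DCs within those 3 sets, without the marker cells and in the 72 h table. Of the 6 genes most like Klf2, 1 was shared with the list over the cultured libraries. S1pr1, Lcn4 and Gm4955 could not enter that list at under 20 CPM, and S1pr1 was also further from Klf2 there than the 6 genes listed. The cause of these moves was not tested. Molecule depth is unknown, so a share near 0 does not show absence.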
